A study of Mus musculus with 3 samples.

Results

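The regions described here are those that an Ets-1 chromatin immunoprecipitation experiment (ChIP-seq) in Min6 cells listed at 9 genes for transcription factors of β-cell identity: Mafa, Pdx1, Neurod1, Nkx6-1, Nkx2-2, Pax6, Isl1, Foxa2 and Rfx6. They were taken as all regions whose nearest gene, as deposited, is one of these genes, which gave 58 of the 543367 regions in the comparison table, 17 of 237322 peaks called after overexpression of Ets-1 and 47 of 339856 peaks called with the control virus. Min6 is a mouse insulinoma line that secretes insulin. The cells were grown at 25 mM glucose and infected for 24 h with an adenovirus carrying GFP (Ad-GFP, the control virus) or Ets-1 (Ad-Ets-1), and chromatin was fixed in 1% formaldehyde for 10 min and precipitated with an Ets1 antibody. The input library, from chromatin that was not precipitated, has no virus named in its labels. Each of the 3 groups is 1 library of 1 cell line, so differences could not be checked against replicates and p-values are not printed. Since the libraries hold DNA, the expression of these genes was not measured and the cell type was not checked against its markers.

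Transcription factors of this group bind together at the insulin genes and at one another's genes, and β cells that lose one of them tend to lose insulin production and take on features of other islet or progenitor cells. Pdx1 is the homeodomain factor needed for the pancreas to form and for the adult β cell. Neurod1, a basic helix-loop-helix factor, and Mafa, a leucine zipper factor of the mature β cell, act with Pdx1 on the insulin promoter. Ets-1 is the founding member of the ETS family, whose proteins recognise a core of GGAA, with CCGGAAGT and CAGGAAGT as preferred longer words.

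Library totals, worked out from the deposited counts and depth-scaled counts (RPM), were 1938473 (Ad-Ets-1), 1775757 (Ad-GFP) and 3937473 (input) reads. Read numbers were low: 91.0% of all regions held 2 or fewer reads with Ad-Ets-1 and 89.3% with Ad-GFP, and over the 58 regions the median was 0 and 2 reads, as it was over all regions. Ratios between libraries are ratios of reads scaled to the library totals. Their 95% exact binomial intervals cover counting error only, were computed on fragments of 2 reads in the precipitated libraries, and do not cover the choice of regions by the peak caller or amplification by PCR. Against 0 reads, the ratio is taken to a floor of 3 reads per library and has no interval, and no ratio is given where both libraries held 3 or fewer. The floor is used only at 0 reads, so 0 reads can give a ratio nearer 1 than 1 or 2 reads would. Ratios on the floor and other ratios therefore cannot be ranked against each other. Coordinates are those of mm10, counted from 1.

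The sequences below are from 4 regions: the Mafa region with the lowest Ad-GFP q, and the 3 regions with the most Ad-Ets-1 reads outside Mafa. Each is up to 300 bases around the deposited summit, or the whole region where it is shorter, read 5′ to 3′ on the plus strand of GRCm38. Capitals mark the ETS core GGAA or its reverse complement TTCC.
Mafa, downstream, chr15:75739958-75740257: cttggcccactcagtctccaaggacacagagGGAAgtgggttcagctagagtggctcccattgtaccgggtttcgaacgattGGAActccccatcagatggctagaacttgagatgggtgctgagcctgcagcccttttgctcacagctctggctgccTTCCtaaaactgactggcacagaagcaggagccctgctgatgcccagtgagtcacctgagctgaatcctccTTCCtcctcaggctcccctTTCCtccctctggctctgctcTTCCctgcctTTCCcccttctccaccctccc
Nkx6-1, downstream, chr5:101647487-101647735: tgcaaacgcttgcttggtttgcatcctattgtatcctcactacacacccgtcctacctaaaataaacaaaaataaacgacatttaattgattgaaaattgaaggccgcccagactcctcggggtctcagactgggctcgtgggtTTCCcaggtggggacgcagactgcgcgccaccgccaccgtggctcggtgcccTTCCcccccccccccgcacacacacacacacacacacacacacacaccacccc
Pax6, intronic, chr2:105677021-105677320: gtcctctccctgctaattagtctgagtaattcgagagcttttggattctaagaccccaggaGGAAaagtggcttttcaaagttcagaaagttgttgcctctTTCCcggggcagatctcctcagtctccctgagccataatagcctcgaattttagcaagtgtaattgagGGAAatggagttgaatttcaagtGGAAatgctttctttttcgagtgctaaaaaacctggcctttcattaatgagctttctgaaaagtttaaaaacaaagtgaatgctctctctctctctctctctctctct
Isl1, downstream, chr13:116276311-116276610: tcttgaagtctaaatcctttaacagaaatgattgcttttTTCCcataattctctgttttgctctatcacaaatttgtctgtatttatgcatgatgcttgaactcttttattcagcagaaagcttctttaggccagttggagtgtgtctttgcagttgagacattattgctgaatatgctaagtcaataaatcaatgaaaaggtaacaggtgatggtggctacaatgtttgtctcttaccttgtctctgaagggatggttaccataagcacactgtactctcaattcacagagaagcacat
The windows held 7, 2, 4 and 1 core matches in this order, and none held CAGGAAGT or CCGGAAGT. The core is no distinction, since 91.8% of all regions up to 300 bp held it. The Nkx6-1 region held a run of C and a CA repeat near its end, and the Pax6 window ended in a CT repeat.

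Mafa gave the only region of the 58 with more than 10 reads in any library. It spans chromosome 15, 75746706 to 75747751, and held 39 reads with Ad-Ets-1, 32 with Ad-GFP and 20 in the input. All 3 libraries were therefore high here, the input included. The Ad-Ets-1 to Ad-GFP ratio was 1.12 (0.564 to 2.36), an interval that spans 1. Against the input the region was 3.96 times higher with Ad-Ets-1 (2.07 to 7.96) and 3.55 times with Ad-GFP (1.72 to 7.21).

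The deposited class of this region is promoter, since its near edge lies 477 bp from the Mafa start site, but it lies inside the transcribed gene and not upstream of it. In GENCODE M21, Mafa (ENSMUSG00000047591) is on the minus strand, and 906 of the region's 1046 bp are coding sequence, with the other 140 bp in the adjoining 3′ UTR. The region covers 84.1% of the 1077 bp of the annotated coding sequence (75746846 to 75747922). Its GC content was 72.2%, the highest of the 58, against a median of 40.3% over all regions. The 20 input reads are 13.2 times the 1.51 reads of an evenly covered genome. Only 0.0204% of all regions, 111 in number, held as many input reads. As many Ad-Ets-1 reads were held by 0.0236% and as many Ad-GFP reads by 0.0254%. Whether the base composition or the input level has a part in the precipitated reads was not tested.

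In the authors' deposited peak lists, the Ad-Ets-1 list holds this region as 1 peak with a fold enrichment of 4.02 and a q of 0.0417, the only 1 of its 17 peaks at these genes with a q of at most 0.05. The Ad-GFP list holds it as 2 peaks, with folds of 3.87 and 3.56 and q values of 0.125 and 0.274, the first of them classed as 3′ UTR.

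The other 5 Mafa regions were intergenic and lay 7967 to 15844 bp downstream of the start site. The region at 75739929 to 75740261, 7967 bp from the start, held 1 read with Ad-Ets-1, 6 with Ad-GFP and 0 in the input. The Ad-GFP list, as deposited, gives it a fold of 3.65 and a q of 0.0318, the only q of at most 0.05 among its 47 peaks at these genes. Its read ratio was 0.153, with an interval of 0.00582 to 3.80 that spans 1. A region 11152 bp away held 4 and 2 reads and stood in both lists, a ratio of 1.83 (0.0954 to 108.1). The remaining 3 regions held 1 or 2 reads in 1 library and 0 in the others. Summed over its 6 regions, Mafa held 45 and 44 reads, a ratio of 0.937 (0.510 to 1.80).

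Pdx1, on chromosome 5, had 6 listed regions under its name, and each lay 11548 to 32374 bp upstream of the start site, outside the annotated Pdx1 gene. By the deposited classes 4 are intronic and 2 exonic, of whichever transcript lies there, and none is a promoter. Reads ranged from 0 to 4 with Ad-Ets-1, 0 to 3 with Ad-GFP and 0 to 1 in the input. The best read held 4, 0 and 0 reads at 147239523 to 147239826, or 1.22 times the floor. Summed, the gene held 6 and 9 reads, a ratio of 0.611 (0.0854 to 2.83). So few reads could not show a difference.

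Listed regions at the Pdx1 start were assigned to another gene. Among all regions of the comparison, 331996 (61.1%) carry a gene identifier but no gene name, and those at the Pdx1 start were assigned to such a gene (ENSMUSG00000092570), which GENCODE M21 names Plut and places antisense to Pdx1. The region 364 bp downstream of the Pdx1 start, at 147270323 to 147270694, held 2 reads with Ad-Ets-1, 5 with Ad-GFP and 2 in the input. The precipitated libraries gave a ratio of 0.366 (0.00582 to 3.80). Another region, 2982 bp downstream, held 4, 0 and 0 reads, or 1.22 times the floor.

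Neurod1 and Foxa2, a forkhead factor that opens chromatin in endoderm, had 1 region each under their names. The Neurod1 region at 79456579 to 79456816 of chromosome 2 spans the start site, and 173 of its 238 bp lie in the annotated UTR. It held 4 reads with Ad-Ets-1, 2 with Ad-GFP and 1 in the input, and was listed with Ad-GFP alone. The ratio was 1.83 (0.0954 to 108.1). Within 3 kb of the Neurod1 start, 2 more regions were assigned to an unnamed gene that GENCODE M21 lists as Gm26755. The one at 79453540 to 79453851 held 0, 4 and 0 reads and the one at 79454800 to 79455037 held 1, 2 and 1, so that all 3 regions near the start summed to 5 reads with Ad-Ets-1, 8 with Ad-GFP and 2 in the input. At Foxa2 a region 185 bp upstream of the start held 0, 1 and 0 reads, too few for any comparison. The best read region within 50 kb of the Foxa2 gene (chromosome 2, 148041135 to 148041402) was again assigned elsewhere, to the promoter of the unnamed ENSMUSG00000086141, a long noncoding RNA. It lies 4546 bp from the nearest Foxa2 start and held 8, 2 and 0 reads, a ratio of 3.66 (0.363 to 180.5).

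Nkx6-1 and Nkx2-2 are homeodomain factors that act in the developing and the mature β cell. All 6 Nkx6-1 regions were intergenic, 9881 to 29651 bp from the start, and none of any assignment lay within 3 kb of it. The region 17261 bp downstream (chromosome 5, 101647487 to 101647735) held 7 reads with Ad-Ets-1, 0 with Ad-GFP and 1 in the input. This is 2.14 times the Ad-GFP floor and 14.2 times the input (1.61 to 800.3). The input ratio rests on 1 input read, and the region was listed with Ad-Ets-1 alone, a choice that the interval does not cover. In the Ad-Ets-1 list, as deposited, it has a fold of 3.47, a level reached by 1.53% of that list, and a q of 0.285. The RefSeq assembly masks 34.1% of its bases as repeat. The other 5 regions held 0 or 1 reads with Ad-Ets-1 and 2 or 3 with Ad-GFP, so that over the gene the sum was 8 against 11 reads, a ratio of 0.666 (0.127 to 2.58).

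Nkx2-2 was the only gene of the 9 with more regions in the Ad-Ets-1 list alone (3) than in the Ad-GFP list alone (2). Of these, 2 regions held 4 reads with Ad-Ets-1 and 0 in both other libraries, each 1.22 times the floor. One of them, at 147192930 to 147193398 of chromosome 2, was classed as a promoter, but its nearest transcript is a processed transcript of the gene, and it lies 6526 bp upstream of the nearest start of a protein-coding transcript. The other lies 19374 bp upstream. Over all 5 regions the sums were 9 and 3 reads, a ratio of 2.75 (0.375 to 24.0). Within 50 kb of the gene, where 18 of 23 regions carry no gene name, the sums were 23 and 26 and the ratio 0.810 (0.353 to 2.01), so the direction turned with the regions counted.

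Pax6, a paired-domain factor of islet and eye development, had 10 regions, 9 of them classed as promoters. It has many annotated start sites, and 4 of the 10 regions lay within 1 kb of one that belongs to a protein-coding transcript. The region at 105676941 to 105677614 of chromosome 2 held 8 reads with Ad-Ets-1 and 0 in both other libraries, or 2.44 times the Ad-GFP floor. It lies 777 bp upstream of the nearest coding-transcript start and within an intron of longer Pax6 transcripts. The Ad-Ets-1 list, as deposited, gives it a fold of 2.78 and a q of 0.285. The other 9 regions held 2 or 3 reads each with Ad-GFP, too few for a ratio, and 8 of them were listed with Ad-GFP alone. The promoter-class region in both lists, at 105681414 to 105681671, was the only one of the 9 with an Ad-Ets-1 read, and held 1. The highest Ad-GFP fold of the gene, 2.71 with a q of 0.274, was at 105689016 to 105689253, which held 0, 3 and 0 reads. Summed over the gene, 9 and 20 reads gave a ratio of 0.412 (0.123 to 1.47).

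Isl1, a LIM-homeodomain factor of all islet endocrine cells, had the most regions, 19, of which 15 stood in the Ad-GFP list alone, 3 in the Ad-Ets-1 list alone and 1 in both. Within 3 kb of a coding-transcript start, 5 regions held 13 reads with Ad-GFP, 0 with Ad-Ets-1 and 1 in the input. The best read of these includes 96 bp of coding sequence (chromosome 13, 116307789 to 116308369) and held 0, 5 and 0 reads, or 0.550 times when Ad-Ets-1 is set at the floor. Farther downstream, outside the gene, the region at 116287858 to 116288592 held 0, 6 and 0 reads, a ratio of 0.458 on that floor. The region at 116276136 to 116276868 went the other way with 6, 2 and 0 reads, a ratio of 2.75 (0.221 to 144.3). The region next to it, at 116277285 to 116277781, held 0, 4 and 0 reads, or 0.687 times on the floor. The highest deposited folds of the gene were 2.78 with Ad-Ets-1, at 116276232 to 116276868, and 2.76 with Ad-GFP, at 116290792 to 116291164, where 0, 3 and 0 reads were counted.

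Summed over its 19 regions, Isl1 held 12 reads with Ad-Ets-1, 39 with Ad-GFP and 2 in the input, a ratio of 0.282 (0.0903 to 0.710). It was the only gene of the 8 with such an interval whose interval lay under 1. None lay over 1, and the intervals were not adjusted for the number of genes. Over the whole table, 14682 genes had reads in both precipitated libraries and more than 3 in at least 1 of them. Of these, 7.32% had an interval under 1 and 0.327% an interval over 1. The direction found for Isl1 was thus also the more frequent one among these genes. Listed regions as a whole had a ratio of 0.781. The Ad-GFP list is the longer one, sums over listed regions depend on what was listed, and the part of this in the Isl1 ratio was not tested. With the deposited RPM, which adds 1 read to every region, the Isl1 ratio was 0.490. Counting every region within 50 kb of Isl1 gave 19 and 47 reads and a ratio of 0.370 (0.163 to 0.828). This interval holds the 0.781 of all listed regions, while the interval over the named Isl1 regions (0.0903 to 0.710) does not. Of the 19 named regions, 15 entered through the Ad-GFP list alone, against 56.4% of all regions. Neither interval covers this choice, and no difference of Isl1 from the whole table was tested.

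Rfx6, a winged-helix factor that acts in endocrine precursors and adult β cells, had 4 regions with 0 or 1 reads with Ad-Ets-1, 0 to 2 with Ad-GFP and none in the input. One, 354 bp downstream of a coding-transcript start (chromosome 10, 51678164 to 51678492), stood in both lists with 1 read in each precipitated library and 0 in the input. Summed, 3 and 5 reads gave a ratio of 0.550 (0.0510 to 5.33). Counts this low could not show a difference. A region 19155 bp upstream of the nearest coding-transcript start was assigned to an unnamed gene (chromosome 10, 51658210 to 51658601). It held 0, 6 and 0 reads, or 0.458 times on the floor.

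**Figure D1:**
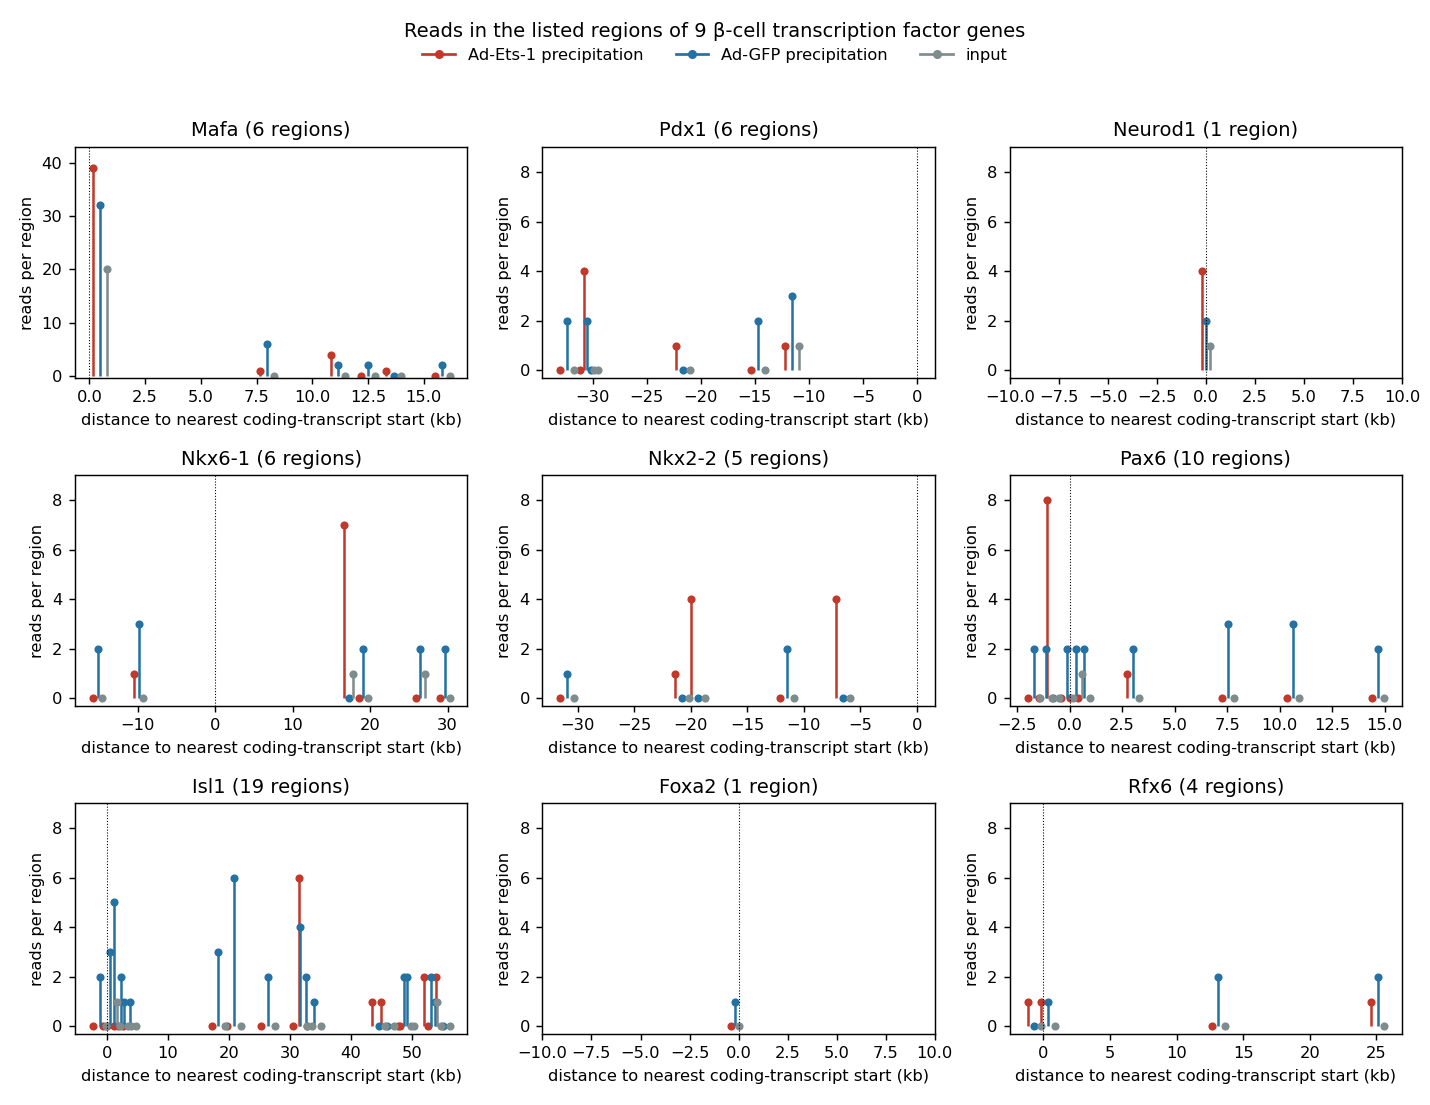
Reads per listed region (vertical axis) against the signed distance in kb from the region's near edge to the nearest start of a protein-coding transcript of the gene (horizontal axis, positive downstream, dotted line at the start), for each of the 9 genes, with the 3 libraries drawn side by side by a small offset. Mafa has its own vertical scale, with 39, 32 and 20 reads at the coding sequence; no other region passed 8 reads.

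Across the 58 regions, 7 held 5 or more reads in a precipitated library, or 12.1%, against 4.13% of all regions. They belong to Isl1 (3), Mafa (2), Nkx6-1 and Pax6. With 5 or more reads and a ratio of at least 2, 3 regions were higher with Ad-Ets-1 (those of Pax6, Nkx6-1 and Isl1 described above), or 5.17% against 0.796% of all regions. With a ratio of at most 0.5, 2 regions were lower (Mafa and Isl1), or 3.45% against 1.60%. None of these 5 differences has an interval that leaves out 1, as 3 of them rest on the floor and the other 2 intervals span it. The calls also depend on the floor, which acts only at 0 reads, here and over all regions. At Mafa 1 against 6 reads gave 0.153, while at Isl1 0 against 6 gave 0.458 and 0 against 5 gave 0.550, which was not called. Regions of 1 gene share their locus and are not replicates, so these shares describe the listed regions and nothing was tested.

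**Figure D2:**
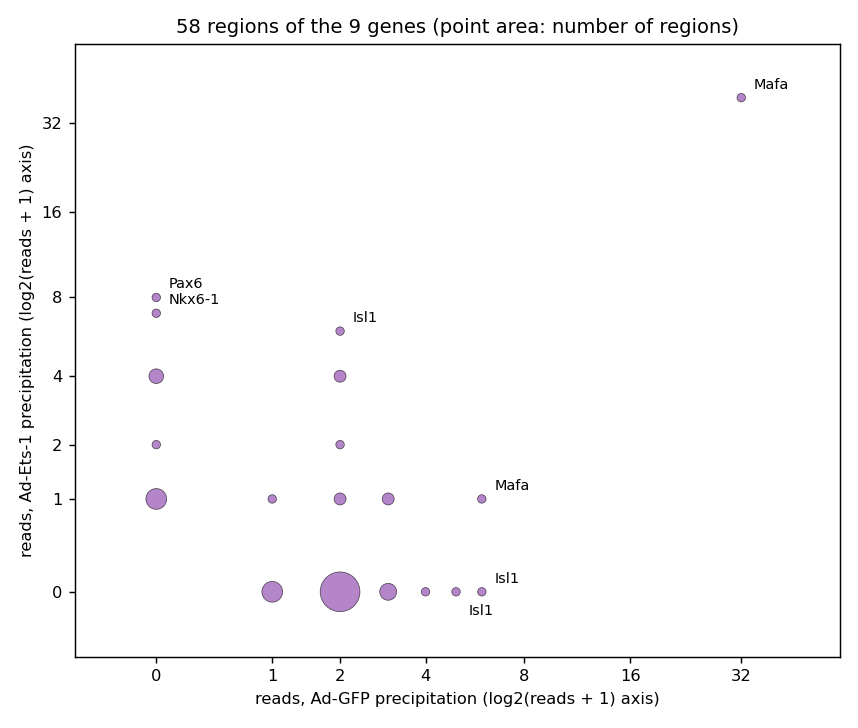
Reads with Ad-Ets-1 (vertical axis) against reads with Ad-GFP (horizontal axis) for the 58 regions, both on log2(reads + 1) axes labelled in reads, with point area proportional to the number of regions at that pair of values. Genes are named where either library holds 5 or more reads; most regions lie at 0 with Ad-Ets-1 and 1 to 3 with Ad-GFP.

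Of the 58 regions, 41 (70.7%) stood in the Ad-GFP list alone, against 56.4% of all regions. A further 12 (20.7%) stood in the Ad-Ets-1 list alone, against 37.5%, and 5 (8.62%) in both, against 6.13%. The regions in both lists were the coding region and 1 downstream region of Mafa and 1 region each of Pax6, Isl1 and Rfx6. Most of these peaks are weak in the authors' deposited lists: 40 of the 47 Ad-GFP peaks share the largest q of that list, 0.764, as do 88.3% of the whole list, and 9 of the 17 Ad-Ets-1 peaks share the largest q of 0.820, as do 85.1% of that list. Their median fold was 1.86 in both lists, where the medians of the whole lists were 1.87 and 1.86. The highest fold per gene in the Ad-Ets-1 list was 4.02 at Mafa, 3.47 at Nkx6-1, 2.78 at Pax6, Isl1 and Nkx2-2, 2.73 at Pdx1 and 1.82 at Rfx6. In the Ad-GFP list it was 3.87 at Mafa, 2.76 at Isl1 and 2.71 at Pax6, and 1.82 to 1.87 at the other 6 genes.

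**Figure D3:**
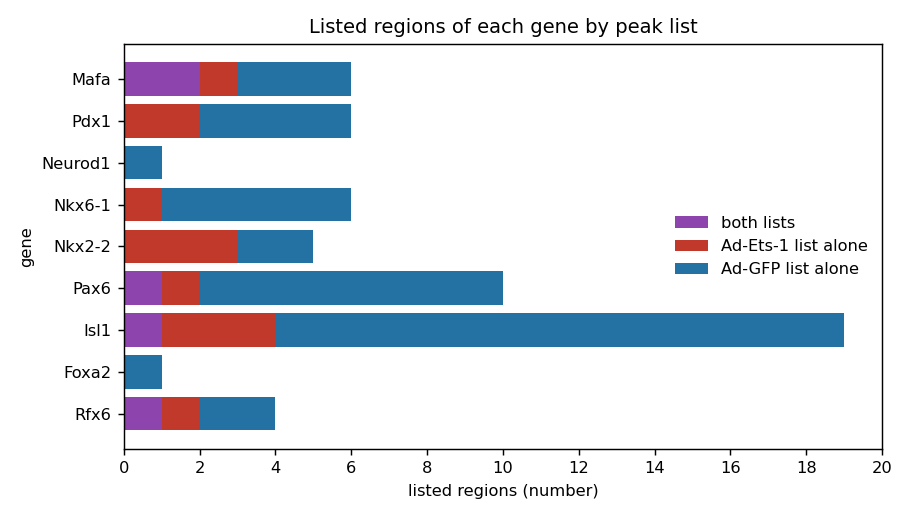
Number of listed regions of each gene (horizontal axis), split by the peak list that holds them. Isl1 has 15 regions in the Ad-GFP list alone and Pax6 has 8, while Nkx2-2 has 3 in the Ad-Ets-1 list alone against 2.

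By the deposited classes, 20 of the 58 regions (34.5%) are promoters, against 7.69% of all regions, 24 are distal intergenic, 11 intronic and 3 exonic. Of the 20, 9 belong to Pax6 and 5 to Isl1. The nearest transcript was protein-coding for 10 of the 20 and of another type, such as a processed transcript or a retained intron, for the other 10. A promoter peak was listed with Ad-Ets-1 for 4 of the 9 genes (Mafa, Nkx2-2, Pax6 and Rfx6), or 44.4%, against 37.7% of 19054 named genes. With Ad-GFP it was listed for 6 of the 9 (Mafa, Neurod1, Pax6, Isl1, Foxa2 and Rfx6), or 66.7%, against 48.6%. Counted instead as any peak within 3 kb of a coding-transcript start, whatever gene it was assigned to, 5 genes had one with Ad-Ets-1 and 7 with Ad-GFP, against 39.0% and 50.3% of 21877 protein-coding genes. Pdx1 then joined both groups, and only Nkx6-1 had no such peak in either list. Nkx2-2 stayed in the Ad-Ets-1 group through another region, 147187299 to 147187547, assigned to an unnamed gene. It lies 895 bp upstream of a coding-transcript start and held 1, 0 and 0 reads. These counts over 9 genes were not tested against the shares.

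Regions within 50 kb of each gene, whatever their assignment, were between 9.82 per 100 kb at Rfx6 and 24.9 per 100 kb at Pax6, around a genome average of 19.9. Mafa, Pdx1, Nkx6-1 and Rfx6 lay under that average with 9.82 to 12.2, Nkx2-2 was close to it with 19.7, and Foxa2, Neurod1, Isl1 and Pax6 lay above it with 20.2 to 24.9. At Neurod1, a region in an intron of the neighbouring gene Cerkl (79407897 to 79408623) held 12, 2 and 0 reads, or 5.50 times (0.667 to 252.8), and lies 48128 bp from the Neurod1 start. A neighbouring region of Cerkl introns, 79406272 to 79406869, held 0, 6 and 0 reads, or 0.458 times on the floor, and an intergenic one assigned to Cerkl, 79480700 to 79480948, had counts of 6, 0 and 1, which is 1.83 times the floor. Over the windows, read ratios were 0.844 (0.465 to 1.53) at Mafa, 1.31 (0.450 to 4.05) at Pdx1 and 0.775 (0.383 to 1.57) at Neurod1. They were 0.723 (0.251 to 2.06) at Nkx6-1, 0.505 (0.247 to 1.03) at Pax6, 0.992 (0.417 to 2.38) at Foxa2 and 0.440 (0.132 to 1.19) at Rfx6. All of these 7 intervals span 1.

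**Figure D4:**
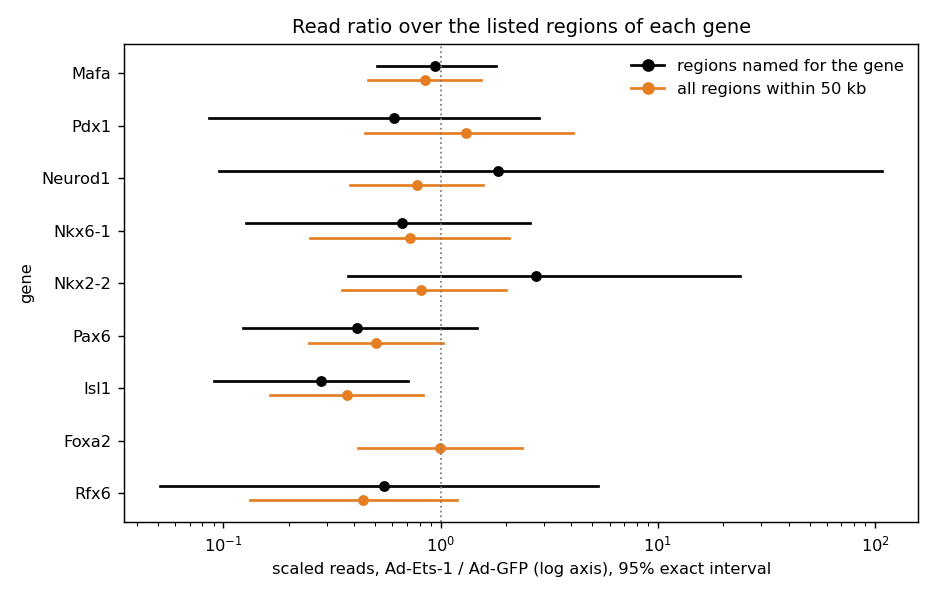
Ratio of scaled reads, Ad-Ets-1 over Ad-GFP, on a log axis with 95% exact intervals, summed over the regions named for each gene (black) and over all regions within 50 kb of the gene (orange). Only Isl1 has intervals under 1, at 0.282 and 0.370; Foxa2 has no black point because its named region held 0 and 1 reads.

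Over the 9 genes together, the regions held 96 reads with Ad-Ets-1, 134 with Ad-GFP and 27 in the input, of which the Mafa coding region alone gave 39, 32 and 20. The ratio was 0.656 (0.443 to 0.965). Without that region, a choice made after seeing the data, 57 and 102 reads gave 0.512 (0.318 to 0.838). Both intervals hold the 0.781 of all listed regions, and no difference from the whole table was tested. Of the 58 regions, 41 entered the sum through the Ad-GFP list alone, 12 through the Ad-Ets-1 list alone and 5 through both. Sums over listed regions depend on what was listed, a choice that the intervals do not cover. The part of this choice in the summed ratios was not tested, so no effect of Ets-1 is read from intervals under 1.

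The ETS words CAGGAAGT and CCGGAAGT, on either strand, were found in 1 of the 58 regions, or 1.72%, against 1.89% of all regions. The match was CAGGAAGT on the minus strand at 116260063 to 116260070 of chromosome 13, 24 bp from the summit of an Isl1 region that held 0, 2 and 0 reads. The shorter word CGGAA, a part of CCGGAAGT but not of CAGGAAGT, was found in 9 of the 58 regions, against 7.26% of all regions. These were spread over Isl1, Mafa, Nkx2-2, Nkx6-1, Pax6, Pdx1 and Rfx6, and the difference was not tested. Of the 3 regions that were higher with Ad-Ets-1, none held CGGAA. RefSeq promoters of 300 bases (GRCm38.p6, from 250 before to 50 after a start) matched 8 of the 9 genes, all but Mafa, with 11 windows. None of the 11 held either ETS word, against 7.07% of all RefSeq promoter windows, and only those of Neurod1 and of 1 Foxa2 start were touched by a listed region.

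Other transcription factors of islet and pancreas, a list of 40, were described by the same counts, and this list too was chosen with earlier results known. Of these, 37 were the nearest gene of 939 regions, and 35 regions, or 3.73%, held 5 or more reads, against the 4.13% of all regions. With 5 or more reads, a ratio of at least 2 was found for 7 of the 939 regions (0.745%, against 0.796% of all regions) and of at most 0.5 for 9 (0.958%, against 1.60%). Promoter peaks were listed for 8 of the 37 genes with Ad-Ets-1 (21.6%, against 37.7% of named genes) and for 12 with Ad-GFP (32.4%, against 48.6%). Only Rfx3 and Rbpj had promoter regions with 5 or more reads. The Rfx3 promoter, of a factor related to Rfx6, held 13, 2 and 2 reads (chromosome 19, 28011103 to 28011759), a ratio of 5.95 (0.824 to 289.0). The Rbpj promoter, of the transcription factor of Notch signalling, held 6, 2 and 0 reads, or 2.75 times (0.221 to 144.3). Neither interval leaves out 1.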

How the data were processed

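Per the file headers and values, the authors deposited for each region the read counts of the 3 libraries, RPM values of the count plus 1, a ratio of RPM values and its log2 value. For each peak they deposited a fold enrichment (a ratio), −log10 p-values and q-values and a score. The submitters' processing notes name build mm10 and the tools MACS2 2.1.0, BWA 0.7.12, Trimmomatic and FastQC. Their settings and any use of the input by the peak caller were not given in the sources used here.

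Library totals were recovered from counts and RPM. Of the counts above 0, 72.0% (Ad-Ets-1), 74.5% (Ad-GFP) and 19.0% (input) were even, so intervals used 2 reads to a fragment (rounded up) in the former and single reads in the latter. Reads of a gene were summed before halving. Classes and nearest genes are those deposited. Distances to protein-coding transcript starts and gene features are from GENCODE M21, and sequences from GRCm38.p6. Peak starts were raised by 1.

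The genes and lists were chosen with earlier results of these data known. Named were all 9 genes, each of their regions with 5 or more reads, promoter regions in both lists, otherwise the best read region, each list's peak of highest fold per gene, and listed other factors with a promoter region of 5 or more reads. Peaks tied at the highest fold are given by their fold alone. Regions near the genes that carry another name were added after seeing the data. The sequence of the Mafa coding region is not reported here. Computation used scipy 1.17.1, pysam 0.24.0, pandas 2.3.3, numpy 2.4.6 and matplotlib 3.10.9 under Python 3.11.15.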

Additional observations from a re-analysis of the deposited data

How the results depend on the processing

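No paired analysis was possible because all groups are single libraries, and for the same reason no library could be left out. Of 76 recomputed values, 62 stayed within their interval or within 1.5 times, 14 moved and 0 reversed. A reversal was counted only where the main interval left out 1, which held for Isl1 and for the 9 genes together. Changes of direction elsewhere, given below, count among the 62. Part of the 62 could not change, since the farthest region lies 48992 bp from its start and a limit of 100 kb removed none. The 7 regions with 5 or more reads became 19 at a minimum of 3 reads, 1 at a minimum of 10, and 2 where a peak q of at most 0.05 was also asked. At that q, the genes with a promoter peak went from 4 to 1 (Ad-Ets-1) and from 6 to 0 (Ad-GFP). The shorter word CGGAA was in 9 regions, which do not include the 1 region with the longer word. With the deposited RPM ratio, which adds 1 read to each count, regions with 0 reads in a library moved most: 2.14 became 7.33 at Nkx6-1, 2.44 became 8.24 at the Pax6 intron, and 1.22 became 4.58 at both Nkx2-2 regions and at Pdx1, while at Isl1 0.687 became 0.183 (116277285 to 116277781), 0.458 became 0.131 and 0.550 became 0.153. Summed over a gene, the same ratio went from 0.282 to 0.490 at Isl1 and from 2.75 to 1.60 at Nkx2-2, both within the interval and in the same direction. Totals without the 543 best read regions moved no ratio past these limits. Assignment by a 50 kb window, added after seeing the data, turned the direction at Pdx1 (0.611 to 1.31), Neurod1 (1.83 to 0.775) and Nkx2-2 (2.75 to 0.810), each within its interval. Counting promoter regions only turned it at Mafa (0.937 to 1.12), also within its interval. Depth limits all comparisons: the median region held 0 (Ad-Ets-1), 2 (Ad-GFP) and 0 (input) reads.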
